A study of Mus musculus with 24 samples.

Results

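The 9 genes described here act in pyroptosis and necroptosis and were taken by name: *Casp1*, *Casp4*, *Casp8*, *Casp12*, *Gsdmd*, *Zbp1*, *Mlkl*, *Ripk1* and *Ripk3*. They are 9 of the 55487 genes in the count table, of which 21543 had at least 1 count. Expression was measured in AML-12 cells, an established mouse hepatocyte line made from the liver of a mouse carrying a transforming growth factor alpha transgene, so that every group is this one line. Bulk RNA barcoding and sequencing (BRB-seq) was used, which counts each mRNA from its 3′ end.

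Pyroptosis and necroptosis are forms of cell death that end with a ruptured plasma membrane. In pyroptosis, inflammatory caspases cut gasdermin D (*Gsdmd*), and the freed fragment forms pores in the membrane. *Casp1* encodes caspase-1, which is switched on by inflammasomes, and mouse *Casp4* encodes caspase-11, which senses bacterial lipopolysaccharide in the cytosol. In necroptosis, the receptor-interacting kinases RIPK1 and RIPK3 pass a signal from death receptors or toll-like receptors to MLKL, the protein that disrupts the membrane. ZBP1, a sensor of nucleic acids in the Z conformation, recruits RIPK3 directly, and caspase-8 holds the necroptotic branch in check by cleaving RIPK1 and RIPK3.

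There were 6 groups of 4 libraries. BSA was the untransfected vehicle control without palmitate, and PAL received 0.25 mM palmitate bound to albumin to load the cells with fat, also without transfection. The other groups received the same palmitate and then, for 24 h, endoribonuclease-prepared siRNA (esiRNA) carried by lipofectamine. CON had 200 nM control esiRNA against *Egfp*, BMAL1 had 100 nM against *Bmal1* (gene symbol *Arntl*, the clock transcription factor), CHREBP had 100 nM against *Chrebp* (gene symbol *Mlxipl*, a glucose-responsive transcription factor), and BOTH had the pair at 200 nM in total. The questions were what palmitate did, and what silencing either or both factors did under palmitate. Each single silencing therefore differed from CON in total esiRNA as well as in target, whereas BOTH and CON, and likewise CHREBP and BMAL1, were matched in total amount. By the library names, CHREBP shared a column with BOTH, CON shared one with BMAL1, and the untransfected groups shared another, so that a comparison across columns cannot be told apart from a difference between the columns themselves. Within the columns BSA, CON and CHREBP held rows A to D, and PAL, BMAL1 and BOTH held rows E to H. A comparison within a column therefore cannot be told apart from a difference between these rows.

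Libraries held 5399700 to 11237474 gene counts, with 14420 to 15644 genes detected in each, and a gene at 0 in a library may lie as high as 3 counts, or 0.267 to 0.556 CPM (counts scaled to a common library total), from counting error alone. *Arntl* had 44.7 ± 11.6 normalized counts in CON (SD, n = 4), 26.0 ± 4.82 in BMAL1 and 22.8 ± 6.64 in BOTH. *Mlxipl* had 35.6 ± 7.26 in CON, 25.9 ± 4.75 in CHREBP and 17.0 ± 4.91 in BOTH. Against CON, both targets passed the test in BOTH (log2 fold change -0.98 for *Arntl*, adjusted p = 0.00994, and -1.07 for *Mlxipl*, adjusted p = 0.00762), whereas *Mlxipl* did not pass in CHREBP (-0.46, adjusted p = 0.593) and *Arntl* had no adjusted p in BMAL1 (-0.78, unadjusted p = 0.00496). Of 12 hepatocyte markers none was at 0 throughout, albumin (*Alb*) had 86 to 242 counts a library, and *Cps1* and *Tat* had at most 4 and 5. Of the hepatocyte markers tested, 4 of 9 were lower and 2 higher in PAL against BSA, where 7.60% of all genes were lower and 6.65% higher. In BOTH against CON 3 of 10 were lower (3.75% of all genes) and in BOTH against BMAL1 4 of 10 (4.08%). In CON against PAL 1 was higher and 1 lower (1.59% and 0.920% of all genes). In BMAL1 against CON 1 was higher (0.166%), and in CHREBP against BMAL1 1 was lower (0.915%). The part of these markers in the members' differences was not tested. The macrophage markers *Adgre1*, *Fcgr1*, *Clec4f* and *Tyrobp* were at 0 in all 24 libraries, whereas of the other 6 in that list *Cd14* had 429 to 1049 counts a library, *Cd68* 5 to 27, *Csf1r* 0 to 17, *Ptprc* 0 to 8, and *Lyz2* and *Itgam* at most 3. The summed macrophage list, carried by *Cd14*, was 113.7 to 124.5 CPM in BSA and 71.1 to 100.5 in the other groups, and the lymphocyte and endothelial lists never passed 0.623. The stellate cell and fibroblast list, with *Pdgfrb*, *Col3a1* and *Lrat* at 0 in all libraries, was 0.797 to 3.68 CPM in BSA, 0.394 to 0.852 in PAL and 0.142 to 2.11 in the transfected groups, and its part in the palmitate results was not tested. Nothing in the labels says that libraries of a group came from separate cultures, so the p-values measure the spread between these libraries, which may be technical. In bulk RNA, fewer cells expressing a gene and less of its RNA per cell cannot be told apart.

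The 9 genes differed widely in how well they were detected. *Casp8*, *Gsdmd*, *Mlkl*, *Ripk1* and *Ripk3* were above 30 counts in every library. *Zbp1* ranged from 0 to 460 counts, with 0 in 2 libraries, and *Casp4* and *Casp12* from 0 to 29 and from 0 to 18, each at 0 in 7 libraries. *Casp1* had 8 counts in all, was at 0 in 19 of 24 libraries and passed the filter of 25 summed counts in no comparison. Across the 4 esiRNA groups, 5 of the 8 genes tested differed in a likelihood ratio test in DESeq2 (*Zbp1*, *Mlkl*, *Gsdmd*, *Casp12* and *Casp4*), against 9.92% of all genes, and *Casp8*, *Ripk1* and *Ripk3* did not (adjusted p = 0.905, 0.65 and 0.988). *Casp12* was not called without CON replicate 2 or BOTH replicate 1, and *Casp12* and *Casp4* were not called with the replicate number as a block.

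**Figure D1:**
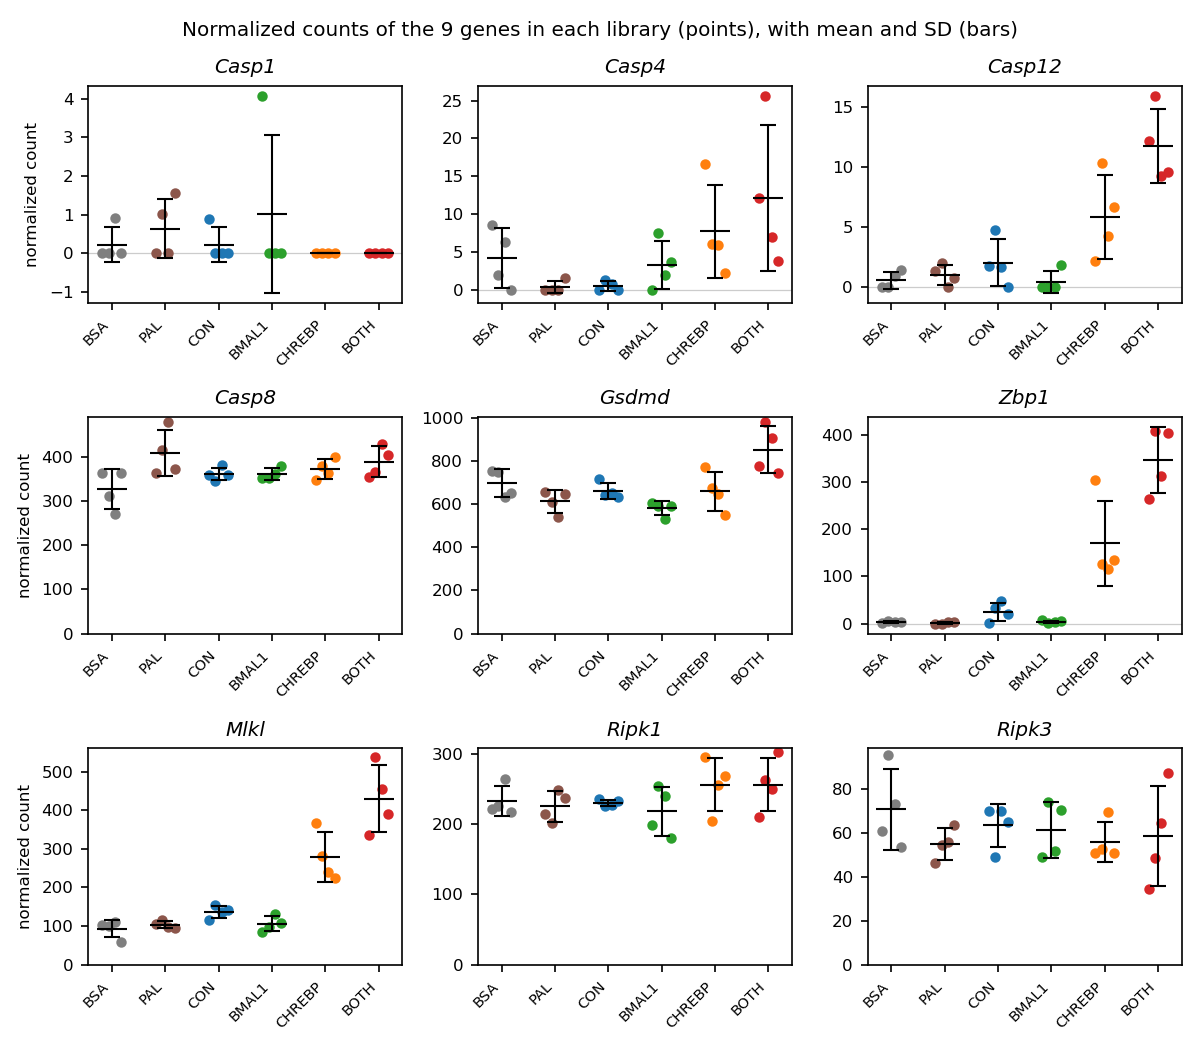
Normalized counts (y axis, a separate scale for each gene) of the 9 genes in each of the 24 libraries, by group (x axis). Points are libraries, and bars are the mean and SD of 4 libraries, whose lower end can pass below 0 where counts are few. *Zbp1* and *Mlkl* in CHREBP and BOTH sit above every library of the other 4 groups, whereas the ranges of *Ripk1* and *Ripk3* overlap between all groups.

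*Zbp1*, the nucleic acid sensor, spanned the levels from 0 to 406.6 normalized counts. Its normalized counts were 0.856, 4.83, 3.61 and 4.24 in the 4 BSA libraries and 0, 0, 3.35 and 2.33 in the 4 PAL libraries. In CON they were 1.80, 32.4, 46.9 and 20.9, and in BMAL1 6.79, 2.12, 2.87 and 4.57. The CON libraries thus spread widely, with replicate 1 at the level of the untransfected cells and the other 3 above all BSA, PAL and BMAL1 libraries. In CHREBP the values were 304.6, 126.5, 115.7 and 134.0, and in BOTH 263.3, 406.6, 311.8 and 402.3. All 8 libraries that received *Chrebp* esiRNA were above all 16 others, and the CHREBP and BOTH ranges overlapped through CHREBP replicate 1. In order of mean level the groups were BOTH, CHREBP, CON, BMAL1, BSA and PAL, and of the neighbours in that order only CHREBP and CON had ranges that did not overlap.

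*Mlkl*, the membrane-disrupting effector of necroptosis, followed the same order for the first 4 groups at a smaller amplitude. Normalized counts were 101.9, 100.6, 110.0 and 59.4 in BSA and 105.6, 114.7, 97.3 and 94.8 in PAL. They were 114.9, 153.1, 134.9 and 142.6 in CON and 85.5, 97.8, 131.2 and 108.7 in BMAL1. In CHREBP they were 367.7, 280.6, 240.8 and 224.8, and in BOTH 335.2, 537.4, 455.0 and 389.8. Here too the CHREBP and BOTH libraries were all above the other 16, and CHREBP and CON were the only neighbouring groups whose ranges did not overlap.

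*Ripk1* and *Ripk3*, the kinases upstream of MLKL, passed the test in none of the comparisons. *Ripk1* means ran from 218 ± 34.6 in BMAL1 to 256 ± 38.1 in BOTH (SD, n = 4), and single libraries from 180.9 to 302.4. *Ripk3* means ran from 55.0 ± 7.19 in PAL to 70.8 ± 18.4 in BSA, and single libraries from 34.3 in BOTH to 95.7 in BSA. All neighbouring groups overlapped for both genes. *Casp8*, the protease that restrains this branch, was as even among the transfected cells, with means of 389 ± 34.98 in BOTH, 372 ± 22.4 in CHREBP, 361 ± 14.5 in CON and 361 ± 12.8 in BMAL1. The intervals of these null results were narrow for *Casp8* (BOTH against CON, log2 fold change 0.10, 95% interval -0.07 to 0.27) and *Ripk1* (0.16, -0.11 to 0.42) and wider for *Ripk3* (-0.11, -0.58 to 0.36).

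*Gsdmd*, the pore-forming substrate of the inflammatory caspases, had its highest mean in BOTH. Normalized counts were 756.2, 750.4, 632.1 and 653.6 in BSA and 658.7, 609.6, 540.1 and 646.8 in PAL. They were 717.3, 642.7, 653.9 and 631.8 in CON, 606.8, 593.9, 532.4 and 593.0 in BMAL1 and 770.8, 674.8, 645.0 and 549.3 in CHREBP. In BOTH they were 777.7, 982.0, 905.5 and 746.0, above every CON and BMAL1 library and overlapping CHREBP through its replicate 1. The BMAL1 libraries were all below the CON libraries.

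The inflammatory caspase genes lie side by side on chromosome 9. In the GRCm38 annotation *Casp1* (ENSMUSG00000025888) spans chr9:5298517-5307265, *Casp4* (ENSMUSG00000033538) chr9:5308828-5336783 and *Casp12* (ENSMUSG00000025887), which encodes a caspase tied to the endoplasmic reticulum, chr9:5345430-5373032, all on the plus strand. The 3 genes fill a stretch of 74516 bases that holds no other annotated gene. *Casp4* counts summed over the 4 libraries of a group were 50 in BOTH, 31 in CHREBP, 19 in BSA, 13 in BMAL1, 3 in CON and 2 in PAL. *Casp12* sums were 47 in BOTH, 25 in CHREBP, 11 in CON, 4 in PAL and 2 each in BMAL1 and BSA. *Casp1* sums were 3 each in BMAL1 and PAL, 1 each in BSA and CON, and 0 in CHREBP and BOTH, and its 3 counts in BMAL1 all came from 1 library. So few *Casp1* counts show no direction: 0 against 1 count in BOTH against CON has a counting interval of the ratio from 0 to 46.2.

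By library, *Casp4* normalized counts were 16.6, 6.03, 5.96 and 2.21 in CHREBP and 12.2, 25.6, 6.93 and 3.84 in BOTH, against 0, 1.349, 0.823 and 0 in CON and 0, 7.44, 1.92 and 3.65 in BMAL1. Every CHREBP and BOTH library was above every CON library, and BMAL1 overlapped CHREBP and BOTH. *Casp12* was at 2.21, 10.3, 4.25 and 6.64 in CHREBP and 12.2, 15.9, 9.24 and 9.60 in BOTH, against 1.80, 4.72, 1.65 and 0 in CON and 0, 0, 0 and 1.83 in BMAL1. For *Casp12* the BOTH libraries lay above CON and BMAL1 without overlap, and CHREBP lay above BMAL1 but overlapped CON.

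The other members are scattered over the genome. On GRCm38, *Casp8* (ENSMUSG00000026029) lies at chr1:58795374-58847503 on the plus strand, *Gsdmd* (ENSMUSG00000022575) at chr15:75862327-75867408 on the plus strand, *Zbp1* (ENSMUSG00000027514) at chr2:173206612-173218923 on the minus strand and *Mlkl* (ENSMUSG00000012519) at chr8:111311797-111338177 on the minus strand. *Ripk1* (ENSMUSG00000021408) lies at chr13:34002363-34037147 on the plus strand and *Ripk3* (ENSMUSG00000022221) at chr14:55784995-55788865 on the minus strand. *Ripk1* overlaps 3 annotated genes, among them *Serpinb6a* on the other strand, and *Casp8* and *Mlkl* overlap 1 each. Whether counting used the strand is not given in the sources used here, so reads of these overlaps may be shared. The other 6 members overlap none.

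Upstream sequences are shown for *Casp4*, *Casp12* and *Mlkl*, 3 of the genes that were higher in BOTH than in CON, so that their letters can be read beside these counts. Each is the 250 bases before a RefSeq start on GRCm38.p6, written 5′ to 3′ on the gene's strand. Capitals mark matches on either strand to the interferon regulatory factor core AANNGAAA or to the STAT-binding GAS element TTCNNNGAA. The windows are *Casp4* chr9:5308610-5308859 (plus), *Casp12* chr9:5345226-5345475 (plus) and *Mlkl* chr8:111338206-111338455 (minus).
Casp4: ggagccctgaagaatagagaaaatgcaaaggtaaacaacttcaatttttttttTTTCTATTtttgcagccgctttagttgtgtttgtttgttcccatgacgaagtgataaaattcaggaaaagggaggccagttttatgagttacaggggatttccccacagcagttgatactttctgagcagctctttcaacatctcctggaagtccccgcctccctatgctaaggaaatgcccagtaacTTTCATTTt
Casp12: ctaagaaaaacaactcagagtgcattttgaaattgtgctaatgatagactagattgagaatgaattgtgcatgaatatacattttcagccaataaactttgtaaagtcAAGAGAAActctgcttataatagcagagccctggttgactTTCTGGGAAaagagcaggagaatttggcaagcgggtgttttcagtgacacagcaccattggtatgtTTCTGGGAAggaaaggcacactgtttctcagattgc
Mlkl: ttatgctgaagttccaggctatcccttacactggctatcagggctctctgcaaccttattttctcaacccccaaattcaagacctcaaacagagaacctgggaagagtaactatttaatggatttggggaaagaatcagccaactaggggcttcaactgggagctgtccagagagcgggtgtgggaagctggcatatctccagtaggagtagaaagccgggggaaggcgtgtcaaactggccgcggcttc

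RefSeq windows, which run from 250 bases before to 50 bases after a start, were present for 7 of the 9 members. *Zbp1* and *Gsdmd* had no window and were not searched. The interferon regulatory factor core was in at least 1 window of *Casp4*, *Casp12*, *Casp8* and *Ripk1*, which are 4 of the 7 members, and of all 27025 genes with a window 26.7% had it. By window it was in 23.9% of all 32851. The longer interferon-stimulated response element, in which blocks of GAAA stand 2 bases apart and which contains that core, was in a *Ripk1* window and in 3.44% of all windows. GAS matches were in *Casp12* and *Ripk1* windows, 2 in each, and in 8.30% of all windows. The E-box CACGTG, the letters to which BMAL1 and its partner CLOCK bind, was in *Casp1* and *Ripk3* windows and in 7.15% of all windows. *Casp4* windows held matches to the NF-kappaB motif, which was in 8.46% of all windows, and the *Mlkl* window held none of these motifs. A match describes letters only.

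In PAL against BSA 1 of the 5 members that could be tested passed, *Casp8*, which was higher in PAL. *Casp8* normalized counts were 362.3, 310.4, 270.5 and 363.6 in BSA and 364.4, 416.4, 479.7 and 373.1 in PAL, so that the ranges stood apart by less than 1 count. The log2 fold change was 0.33 (SE 0.12, adjusted p = 0.0407), and 6.65% of all 12827 genes tested were higher and 7.60% lower, so that the count of 1 in 5 rests on a single gene. The call was lost without BSA replicate 2 or 3 or without PAL replicate 3 (adjusted p = 0.141 to 0.234). *Gsdmd* (-0.18, adjusted p = 0.202), *Ripk3* (-0.36, 0.371), *Mlkl* (0.13, 0.764) and *Ripk1* (-0.04, 0.908) did not pass. *Casp4* fell below the filter here. Its 2 counts in PAL against 19 in BSA correspond to a ratio of 0.107 with a counting interval of 0.0122 to 0.446 that leaves out the spread between libraries, and in BSA its values of 8.56, 1.93, 6.31 and 0 overlapped those of PAL at 0, 0, 0 and 1.55.

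CON and PAL differ in the transfection with control esiRNA and in library column and row, which cannot be told apart. *Zbp1* was higher in CON than in PAL (log2 fold change 4.12, SE 1.24, adjusted p = 0.0473), the 1 member called of 6 tested, against 1.59% of genes called higher and 0.920% lower. The groups overlapped through CON replicate 1. Without that library the log2 fold change was 4.48 (adjusted p = 1.98e-07), and without PAL replicate 1 or 4 or CON replicate 2, 3 or 4 the call was lost (adjusted p = 0.118 to 0.32). The log2 fold change was 4.86 without PAL replicate 3, the highest value over the 8 libraries left out in turn. *Mlkl* was at 1.33-fold without passing (log2 fold change 0.41, adjusted p = 0.203), although its CON libraries were all above its PAL libraries.

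With *Bmal1* esiRNA, *Zbp1* was lower than in CON (log2 fold change -2.68, SE 0.71, adjusted p = 0.0486), the 1 member called of 8 tested where 0.324% of genes were lower and 0.166% higher. The BMAL1 and CON ranges overlapped, again through CON replicate 1. Leaving that library out gave -3.08 (adjusted p = 9.49e-06), whereas leaving out CON replicate 2 or BMAL1 replicate 2, 3 or 4 lost the call (adjusted p = 0.157 to 0.389), leaving out CON replicate 3 left it without an adjusted p (-2.21), and edgeR's quasi-likelihood test did not make it (-2.70, adjusted p = 0.283). *Gsdmd* was 0.88-fold in BMAL1, with no overlap between the groups, and did not pass (log2 fold change -0.19, adjusted p = 0.724). *Mlkl* did not pass either (-0.36, adjusted p = 0.637). *Casp4* (2.43), *Casp12* (-2.09) and *Ripk3* (-0.04) had no adjusted p from DESeq2's independent filtering, which sets genes with few counts aside.

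With *Chrebp* esiRNA, *Zbp1* was 6.63-fold and *Mlkl* 2.03-fold higher than in CON. Their log2 fold changes were 2.73 (SE 0.60, adjusted p = 0.000442) and 1.02 (SE 0.17, adjusted p = 2.11e-07), and these were the members called of 8 tested (3 with *Casp4* under each of the 7 alternatives with all libraries), where 2.65% of genes were higher and 0.771% lower. Without CON replicate 1 the values were 2.33 for *Zbp1* and 0.95 for *Mlkl* (adjusted p = 1.56e-06 and 1.76e-05), and without CHREBP replicate 1, the highest CHREBP library for both, 2.29 and 0.87 (adjusted p = 0.0118 and 2.96e-05). *Casp4* was 12.3-fold in the fit (log2 fold change 3.62, SE 1.10) but had no adjusted p. With the adjustment taken over every tested gene it passed (adjusted p = 0.039), as it did in edgeR (adjusted p = 0.0772), and its 31 counts against 3 give a ratio of 11.7 with a counting interval of 3.64 to 59.6. Leaving out 1 library moved its log2 fold change between 2.95 (without CHREBP replicate 1, no adjusted p) and 4.49 (without CON replicate 2, adjusted p = 0.0521), and it missed the threshold without CON replicate 1 or 4 (adjusted p = 0.125 and 0.102). *Gsdmd* stood at a log2 fold change of -0.01 with a 95% interval of -0.21 to 0.19.

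With both esiRNAs, 5 of the 8 members tested were higher than in CON, where 5.99% of genes were higher and 3.75% lower. *Zbp1* was 13.5-fold (log2 fold change 3.75, SE 0.60, adjusted p = 2.85e-08) and *Mlkl* 3.14-fold (1.65, SE 0.17, adjusted p = 8.47e-21). *Gsdmd* was 1.29-fold (0.36, SE 0.10, adjusted p = 0.00678), and all of these held without any 1 library. *Casp4* was at 4.30 (SE 1.09, adjusted p = 0.00198) and *Casp12* at 2.40 (SE 0.73, adjusted p = 0.0183), from 50 counts against 3 and 47 against 11. Their counting ratios were 19.8 (6.39 to 99.1) and 5.07 (2.59 to 10.8). Both lost their adjusted p, though not their direction, without CON replicate 1 or without BOTH replicate 1 or 2, and *Casp12* also without CON replicate 2 (log2 fold changes of 3.62 to 4.31 for *Casp4* and 2.22 to 3.26 for *Casp12*), and *Casp4* was at 5.17 without CON replicate 2. The median log2 fold change over the 8 members was 1.01, beside -0.01 over all genes tested.

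**Figure D2:**
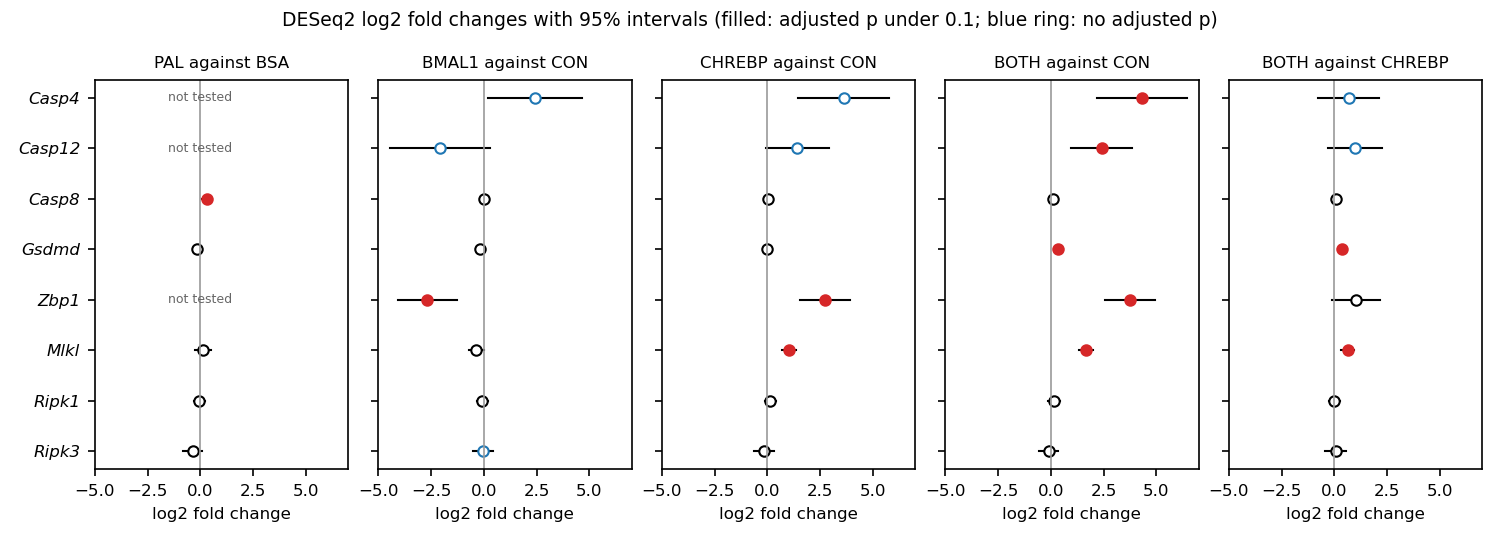
DESeq2 log2 fold changes (x axis) of 8 members (y axis) in 5 comparisons, with 95% intervals. Filled points have an adjusted p under 0.1, blue rings had no adjusted p, and *Casp1* was tested nowhere. In BOTH against CON, 5 points are filled, while *Casp8*, *Ripk1* and *Ripk3* lie between -0.11 and 0.16.

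At equal total esiRNA, CHREBP exceeded BMAL1 for 3 of 8 members, where 2.90% of genes were higher and 0.915% lower. *Zbp1* was 42.4-fold (log2 fold change 5.41, SE 0.69, adjusted p = 1.31e-12) and *Mlkl* 2.61-fold (1.38, SE 0.17, adjusted p = 2.39e-13). *Casp12* passed at 3.50 (SE 1.17, adjusted p = 0.078) from 25 counts against 2. That call was lost without BMAL1 replicate 1, 2 or 3 or CHREBP replicate 2 or 4 (adjusted p = 0.124 to 0.238), and without BMAL1 replicate 4 the log2 fold change was 4.85 (adjusted p = 0.0147). BOTH exceeded BMAL1 for *Zbp1* (6.43, adjusted p = 2.28e-18), *Mlkl* (2.01, adjusted p = 2.89e-29), *Gsdmd* (0.55, adjusted p = 3.11e-06) and *Casp12* (4.49, adjusted p = 0.00216, from 47 counts against 2), where 6.35% of genes were higher and 4.08% lower. For *Casp12* the adjusted p was lost without BMAL1 replicate 1 or without BOTH replicate 1 or 2 (4.19 to 4.47), and the log2 fold change was 5.84 without BMAL1 replicate 4. *Casp4* missed the threshold in both comparisons (1.20 and 1.87, adjusted p = 0.691 and 0.135), but in BOTH against BMAL1 it passed without BMAL1 replicate 2 (2.61, adjusted p = 0.0749) or BOTH replicate 4 (2.17, 0.0531) and was at 1.19, with no adjusted p, without BOTH replicate 2.

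BOTH and CHREBP share a library column and differ by the added *Bmal1* esiRNA, by total amount and by library rows (E to H against A to D). *Mlkl* (1.54-fold, log2 fold change 0.63, SE 0.16, adjusted p = 0.0203) and *Gsdmd* (1.29-fold, 0.37, SE 0.10, adjusted p = 0.0391) were higher in BOTH, where 0.843% of genes were higher and 0.151% lower, and the ranges of both overlapped. Neither passed in edgeR (adjusted p = 0.104 and 0.142) or without CHREBP replicate 3 or 4 or BOTH replicate 2 (0.132 to 0.149 for *Mlkl* and 0.149 to 0.254 for *Gsdmd*), and *Gsdmd* also failed without BOTH replicate 3 (0.164). *Zbp1* was 2.03-fold without passing (1.02, 95% interval -0.13 to 2.18, adjusted p = 0.656).

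The effect of *Bmal1* esiRNA differed with and without *Chrebp* esiRNA for 3 members, all in the higher direction, where 1.20% of genes had a positive and 0.267% a negative difference past the threshold. For *Zbp1* the *Bmal1* esiRNA effect was -2.68 alone and 1.02 on top of *Chrebp* esiRNA, a difference of 3.70 on the log2 scale (SE 0.92, adjusted p = 0.0109). For *Mlkl* the effects were -0.36 and 0.63, a difference of 0.99 (SE 0.24, adjusted p = 0.00987), and for *Gsdmd* -0.19 and 0.37, a difference of 0.56 (SE 0.14, adjusted p = 0.0172). All 3 differences passed without any 1 of the 16 libraries and in edgeR (adjusted p = 0.025, 0.0516 and 0.0598). *Casp8* had a difference of 0.06 (95% interval -0.19 to 0.30), and *Casp4* and *Casp12* had no adjusted p. Total esiRNA fell from 200 to 100 nM between CON and BMAL1 and rose from 100 to 200 nM between CHREBP and BOTH, so the difference in effect cannot be told apart from the total amount.

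**Figure D3:**
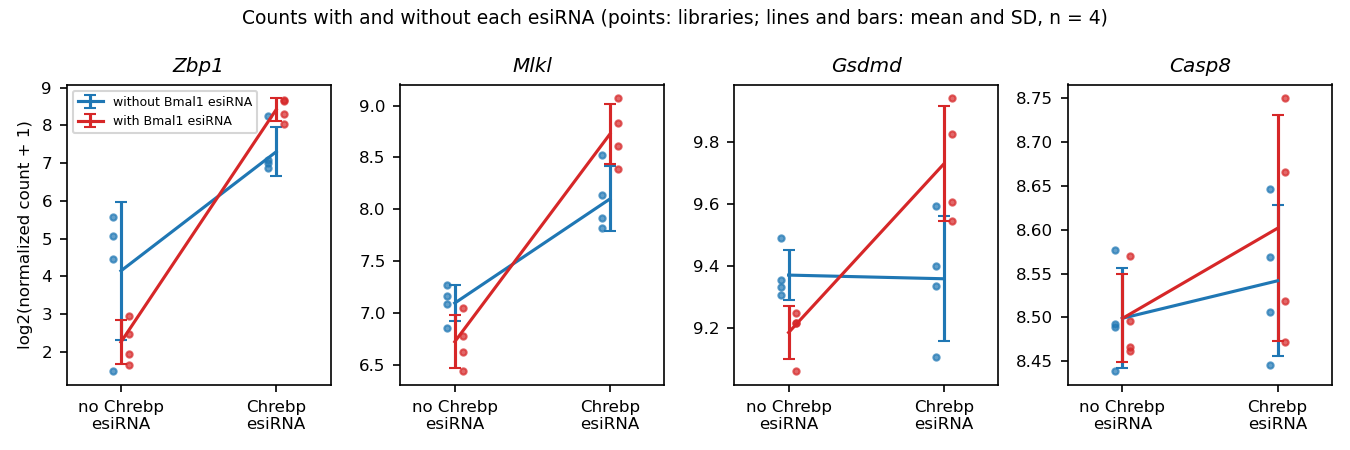
log2(normalized count + 1) of *Zbp1*, *Mlkl*, *Gsdmd* and *Casp8* (y axis, a separate scale for each gene that does not start at 0) without and with *Chrebp* esiRNA (x axis), in blue without and in red with *Bmal1* esiRNA. Points are libraries, and lines and bars are the mean and SD of 4. The lines cross for *Zbp1*, *Mlkl* and *Gsdmd*, with the red line below at the left and above at the right, and the *Casp8* bars overlap throughout.

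Interferon-induced genes were called in the comparisons in which *Zbp1* was called, and in some in which *Gsdmd* and *Mlkl* were not. The mean of log2(normalized count + 1) over 20 such genes, none of them a member, was 10.1 to 10.8 in BOTH, 9.25 to 10.3 in CHREBP, 4.94 to 7.70 in CON and 5.07 to 5.71 in BMAL1, and in the untransfected groups it was 3.90 to 4.14 for BSA and 3.36 to 3.75 for PAL. All 20 were called higher in CHREBP and in BOTH against CON, where 2.65% and 5.99% of all genes were higher. In CON against PAL 17 of 18 tested were higher (1.59% of all genes), and in BMAL1 against CON 9 were lower (0.324%). *Gsdmd* passed in none of CHREBP against CON, CON against PAL and BMAL1 against CON, and *Mlkl* only in the first of these. The library with the lowest mean in CON, replicate 1, was the lowest CON library for *Zbp1* and *Mlkl* but the highest for *Gsdmd*, and the library with the highest mean in CHREBP, replicate 1, was the highest CHREBP library for *Zbp1*, *Mlkl* and *Gsdmd*. In BOTH against CHREBP 1 of the 20 was called, *Irf1* (log2 fold change 0.45, adjusted p = 0.0496), where 0.843% of all genes were higher. All 20 had positive log2 fold changes with a median of 0.80. The difference in the effect of *Bmal1* esiRNA passed, as a positive value, for 16 of the 20 and for 1.20% of all genes, with a median of 2.63 over the list. The part of the interferon-induced genes' level, of the transfection or of the library column or row in the members' differences was not tested.

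**Figure D4:**
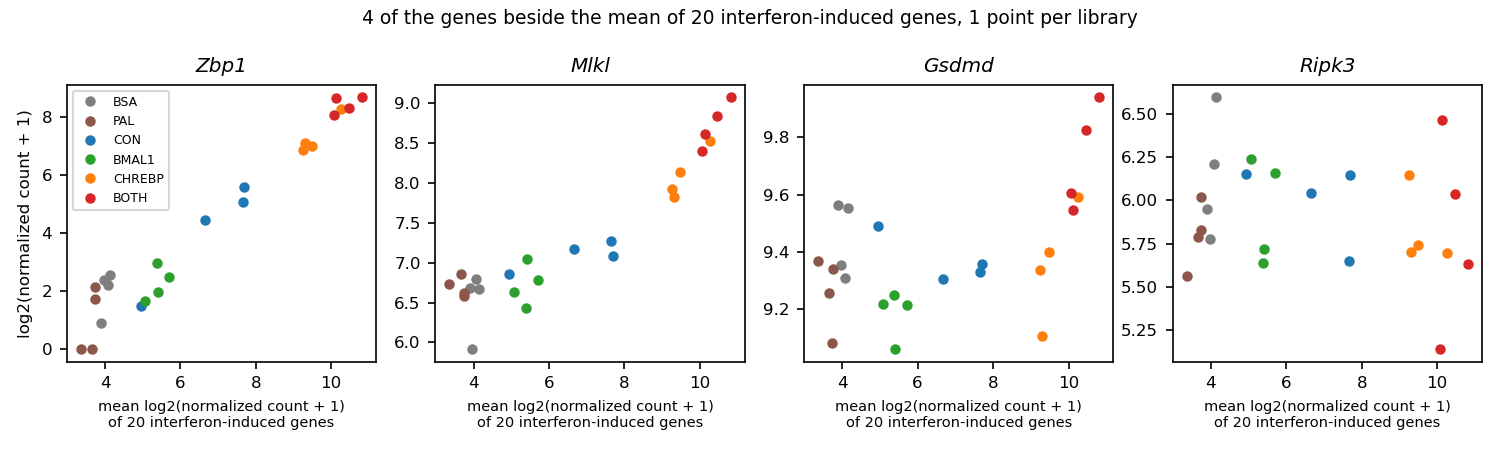
log2(normalized count + 1) of *Zbp1*, *Mlkl*, *Gsdmd* and *Ripk3* (y axis, a separate scale for each gene that does not start at 0) against the mean of the same quantity over 20 interferon-induced genes (x axis), with 1 point per library colored by group. *Zbp1* and *Mlkl* are highest in the CHREBP and BOTH libraries at x values of 9.25 and above, and *Ripk3* shows no such order.

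The genes most like each member across the 24 libraries, by Pearson's correlation of log2(normalized count + 1) over 9380 genes, were sought for the 6 members with a mean of at least 20 normalized counts. These values describe libraries that share groups and columns. For *Zbp1* they were *Ifit3b* (0.986), *Mndal* (0.979) and *Ube2l6* (0.978), and for *Mlkl* they were *Daxx* (0.980), *Tap1* (0.973) and *Mitd1* (0.972). For *Gsdmd* the values were lower, with *Gcnt2* (0.836), *Slc3a2* (0.815) and *Rasgef1b* (0.800). The closest gene was *Psmc4* for *Casp8* (0.735), *Crcp* for *Ripk1* (0.719) and *Fam168b* for *Ripk3* (0.712).

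Upstream and downstream of the 9 genes, 6 lists of other pathway genes held 97 genes, of which 82 had counts. In PAL against BSA more of them were lower than higher, 11 against 5 of 64 tested, where 7.60% of all genes were lower and 6.65% higher. Among the ubiquitin ligases and kinases that act on RIPK1, *Ikbke* (-0.70, adjusted p = 2.72e-10), *Birc3* (cIAP2, -0.49, 0.0355), *Tnfaip3* (A20, -0.33) and *Mapkapk2* (-0.22) fell and *Rbck1* rose (0.20, 0.0642) of 22 tested. Of 11 genes in the list of death receptors, ligands and adaptors, *Fas* (-0.46, adjusted p = 0.000531), *Ticam1* (-0.48, 0.0219) and *Tnfrsf1a* (-0.17) fell and *Tnfrsf21* rose (0.21, 0.0853). *Bid* (-0.21), from the apoptotic list, *Il1rn* (-1.18), the interleukin-1 receptor antagonist, and *Ninj1* (-0.28, adjusted p = 5.42e-05), which ruptures the membrane after pore formation, also fell. *Il33* (0.51), *Nek7* (0.31, adjusted p = 0.00173), which activates NLRP3, and *Vps4a* (0.33), of the membrane repair machinery, rose. *Il1rn* and *Vps4a* had a mean under 50 normalized counts or groups that overlapped.

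In CHREBP against CON, 7 of 68 tested pathway genes were called, all higher, where 2.65% of all genes were higher and 0.771% lower. *Tlr3*, a receptor for double-stranded RNA that signals through RIPK1 and RIPK3, was at 466 ± 163 normalized counts against 110 ± 30.7 (SD, n = 4; log2 fold change 2.08, adjusted p = 1.13e-06). *Il18bp*, which neutralizes the pyroptotic cytokine interleukin-18, rose by 1.52 (adjusted p = 7.21e-06) and the ligase *Rnf31* by 0.79 (1.14e-05). *Tnfsf10* (TRAIL, 3.28), *Myd88* (0.77) and *Rbck1* (0.21, adjusted p = 0.0631) were also higher. Of these, *Tnfsf10* had a mean under 50 normalized counts or groups that overlapped, and *Myd88* had overlapping groups. Of 5 tested inflammasome genes 0 were called by DESeq2 or edgeR, with 1 at an unadjusted p under 0.05, and of 7 genes of the gasdermin and membrane list 0 were called by either, with 2 under it. The median log2 fold change was 0.16 over the 12 death receptor, ligand and adaptor genes, 0.07 over the 22 RIPK1 ligases and kinases and 0.03 over the 11 apoptotic genes.

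In BOTH against CON, 17 of the 68 were higher and 2 lower, where 5.99% of all genes were higher and 3.75% lower. *Tlr3* was at 808 ± 369 normalized counts against 110 ± 30.7 (log2 fold change 2.88, adjusted p = 1.52e-13) and *Il18bp* at 146 ± 50.04 against 24.6 ± 6.99 (2.54, adjusted p = 6.42e-18). *Myd88* (1.43, adjusted p = 5.49e-13), *Rnf31* (1.10, 8.09e-12), *Optn* (0.86, 2.08e-08) and *Bid* (0.53, 1.14e-07) were higher with no overlap between the groups. So was *Chmp4b*, a subunit of the ESCRT-III complex that repairs the membrane (0.51, adjusted p = 5.1e-07), the 1 gene called of 7 in its list. *Naip2* (0.76, adjusted p = 0.000185) and *Naip5* (2.83), sensors of the NLRC4 inflammasome, were the inflammasome genes called of 5 tested, and *Il1rn* (1.25) also rose. *Naip5* had a mean under 50 normalized counts or groups that overlapped. *Tnfrsf10b*, the TRAIL receptor, fell by 0.45 (adjusted p = 0.0208) and *Il33*, with a mean under 50 normalized counts or overlapping groups, by 0.52. The list medians were 0.21 for death receptors, ligands and adaptors, 0.09 for RIPK1 ligases and kinases and 0.12 for apoptotic genes. In BMAL1 against CON 0 of the 68 were called by DESeq2 or by edgeR, with 7 and 6 at an unadjusted p under 0.05, where 0.166% of all genes were higher and 0.324% lower.

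In BOTH against CHREBP 6 of the 68 were called, all higher, where 0.843% of all genes were higher and 0.151% lower. The difference in the effect of *Bmal1* esiRNA, a test that uses the same BOTH and CHREBP libraries, passed for 6, all positive, where 1.20% of all genes had a positive and 0.267% a negative difference. For BOTH against CHREBP the log2 fold changes were 1.02 for *Il18bp*, 0.65 for *Myd88*, the adaptor of interleukin-1 and toll-like receptors, 0.50 for *Optn*, 0.31 for *Bid*, 0.29 for *Tnfaip3* and 0.22 for *Rbck1*. The differences in effect were 1.71 for *Il18bp*, 0.80 for *Myd88*, 0.63 for *Optn*, 0.41 for *Bid*, 0.40 for *Tnfaip3* and 0.31 for *Rbck1*. With edgeR 1 of the 68 was called in each.

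**Figure D5:**
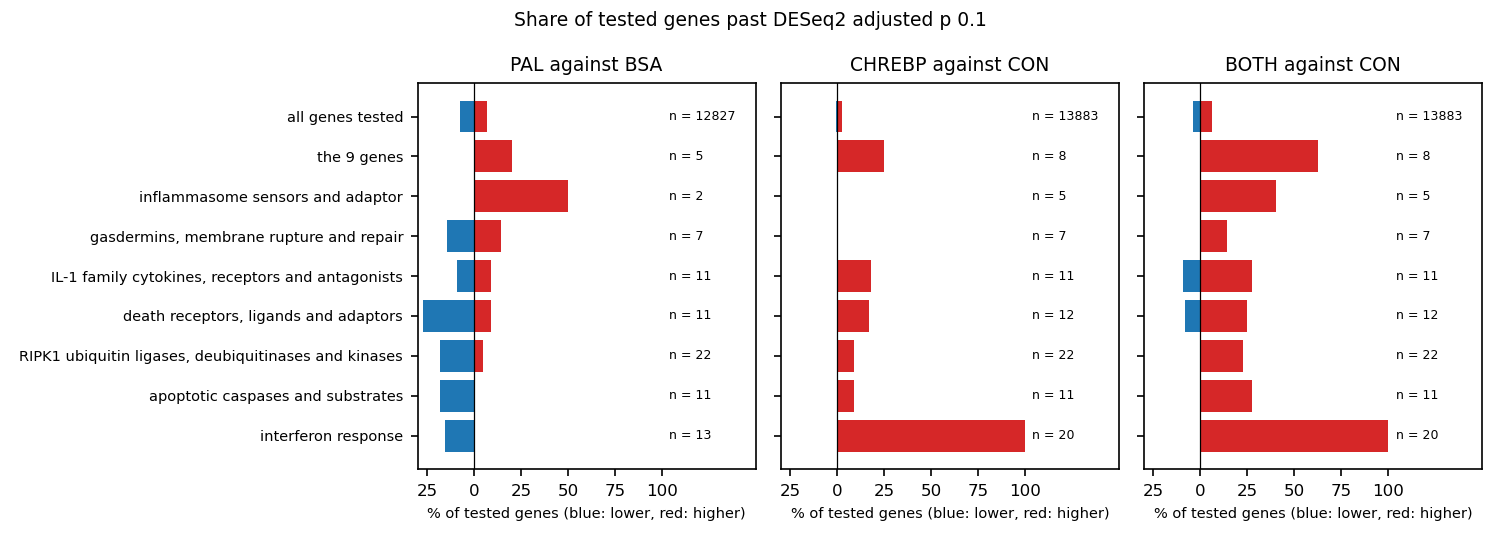
Percent of tested genes past a DESeq2 adjusted p of 0.1 (x axis, red to the right for higher, blue to the left for lower, both counted from 0) for all genes, the 9 genes and 7 other lists (y axis), in 3 comparisons, with the number tested at the right. In BOTH against CON the 9 genes reach 5 of 8 and the interferon response list 20 of 20, against 5.99% of all genes.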

How the data were processed

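Per the labels and the study's methods, the authors demultiplexed BRB-seq reads with the BRB-seq tools, used STAR for alignment to mm10 and obtained gene totals from HTSeq and featureCounts, and the deposited values are raw read counts per gene. Whether molecular identifiers were collapsed, and whether strand was used, is not given in the sources used here. Genes were matched to GENCODE M21. The count test was DESeq2 1.42.0 in R 4.3.3, as in the study, on genes with at least 25 counts summed over the fitted libraries, with a threshold of 0.1 on the Benjamini-Hochberg adjusted p over all genes. PAL against BSA and CON against PAL used 8 libraries each, and the esiRNA groups shared a fit of 16. Normalized counts were divided by DESeq2 size factors of all 24 libraries. Counting intervals are exact binomial 95% intervals of the ratio of summed counts, and they and the 3-count limit cover counting error only. edgeR 4.0.16 was an alternative, and both tools were tested on simulated data. Depth was 5399700 to 11237474 counts per library, and lines that name no gene, left out of totals and tests, included 24.9 to 28.0% of reads not aligned and 5.11 to 6.47% in no feature. The share not aligned was 24.91 to 26.27% in BOTH and 25.77 to 26.66% in CHREBP, below the 26.73 to 27.47% of CON. It was 26.60 to 27.40% in BMAL1, 27.21 to 28.00% in BSA and 26.44 to 27.42% in PAL. Its part in the members' differences was not tested. All members were described in every comparison, with *Arntl* and *Mlxipl* as the targeted genes. Of other lists, those named were up to the 2 largest rises and falls without overlap between the groups at a mean of 50 or more, and further list genes were named after their values were seen. Some list genes are not reported here by name. The members and lists were chosen with earlier results of these data known. Replicate pairs differed by more than sampling noise (chi-square per degree of freedom 2.69 to 23.1). Libraries of the same number were not paired, since in no comparison were all 4 correlations of their deviations above 0.1.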

Additional observations from a re-analysis of the deposited data

Results flagged for a closer look

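Of 54 values of a member in a group, 7 had a library far from the other 3 by Dixon's ratio, a criterion that chance meets in about 1 in 20 groups. In 5 of them a gene of few counts was present in 1 library only. These were *Casp1* at 0.902 normalized counts in BSA, 0.898 in CON and 4.07 in BMAL1, *Casp4* at 1.55 in PAL and *Casp12* at 1.83 in BMAL1. *Zbp1* stood at 304.6 in CHREBP replicate 1, where the other 3 libraries were at 115.7 to 134.0, and *Ripk3* at 69.8 in CHREBP replicate 3, where the others were at 50.9 to 52.5.

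The effect of *Bmal1* esiRNA differed with and without *Chrebp* esiRNA, by the test of the difference itself, for *Mlkl* (0.99 on the log2 scale), *Gsdmd* (0.56) and *Zbp1* (3.70).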

How the results depend on the processing

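No log2 fold change past the threshold changed sign under any alternative. Of 448 member values under other settings with all libraries, 6 no longer passed the threshold, 7 newly passed it (all *Casp4* in CHREBP against CON) and 4 called values had no adjusted p (*Casp4* and *Casp12* in BOTH against CON with all 24 libraries, *Zbp1* in BMAL1 against CON and *Casp12* in CHREBP against BMAL1 with only the 2 groups). edgeR's quasi-likelihood test took the members called lower in BMAL1 against CON from 1 to 0 and those higher in BOTH against CHREBP from 2 to 0, and the fit of only the 2 groups compared gave 0 and 1. In 1 fit of all 24 libraries, 3 members were higher in BOTH against CON instead of 5, because *Casp4* and *Casp12* had no adjusted p, and 1 was lower in PAL against BSA instead of 0, *Casp4* (-3.14, adjusted p = 0.0942). With the replicate number as a block, 0 members were higher in PAL against BSA (*Casp8*, 0.33, adjusted p = 0.163) and 0 lower in BMAL1 against CON (*Zbp1*, -2.67, adjusted p = 0.156), and 3 instead of 5 were called by the likelihood ratio test. The block changed no other count of members by more than 1.5 times. Same-numbered libraries share a number, and in CHREBP against CON and BOTH against BMAL1 also a library row. Their mean correlations were -0.0719 to 0.114, and 0 to 6 of 8 libraries were closest to their own number (6 in CON against PAL, 5 in BOTH against CON). Leaving out 1 library gave 0 to 1 members higher in PAL against BSA and in CON against PAL, 0 to 1 lower in BMAL1 against CON, 3 to 5 higher in BOTH against CON and 0 to 2 higher in BOTH against CHREBP. Taking the adjustment over every tested gene, chosen after seeing the data, left every count of called members within 1.5 times. Depth limits *Casp1*, *Casp4* and *Casp12*, at 8 to 118 counts in all 24 libraries. TMM scaling and no filter on low counts moved no count of members beyond that. Over all genes, the 23 higher and 45 lower calls in BMAL1 against CON were 4 and 10 by edgeR, 6 and 16 with the block, 7 and 26 with the adjustment over every tested gene and 70 and 74 with only the 2 groups, and 35 were higher with all 24 libraries. The 117 and 21 in BOTH against CHREBP were 48 and 5 by edgeR and 75 and 5 with only the 2 groups, and 10 were lower with the block. With only the 2 groups, lower calls went from 520 to 305 in BOTH against CON, from 566 to 297 in BOTH against BMAL1 and from 107 to 184 in CHREBP against CON. The block took PAL against BSA from 853 and 975 to 539 and 649 and CON against PAL from 206 and 119 to 132 and 54. Leaving out 1 library also moved such counts. BMAL1 against CON had 4 and 12 without CON replicate 3 and 22 and 85 without CON replicate 1. BOTH against CHREBP had 49 and 7 without CHREBP replicate 3 and 182 and 30 without CHREBP replicate 1, and CON against PAL had 119 and 61 without CON replicate 3. By edgeR lower calls went from 127 to 74 in CHREBP against BMAL1, and negative differences of effect from 37 to 9 (22 with the adjustment over every tested gene). Of the other pathway genes edgeR called 1 instead of 6 in BOTH against CHREBP and in the difference of effects.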
